A study of Mus musculus with 45 samples.

Results

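The 35 genes described here build and read the chromosome structures of meiotic prophase, and were followed in mouse oocytes and embryos, that is, after their time of use. They were taken by symbol for their roles in recombination and synapsis, and all 35 were found among the 26214 genes of the deposited table. RNA had been sequenced from fully grown oocytes (FGOs) and from single late two-cell (2C) embryos. There were 3 control and 3 K36M FGO libraries, each made from pooled oocytes of females aged 3 to 4 weeks on a hybrid C57BL/6 / 129 background. Control females were H3f3b K36M-flox/+, and K36M females were H3f3b K36M-flox/+; Gdf9-Cre, so that both carried the flox allele and differed in Cre. The Gdf9 promoter drives Cre in oocytes and not in other cells of the ovary, and the recombined H3f3b allele encodes HA-tagged H3.3 with methionine in place of lysine 36, a form known to inhibit the methylation of this lysine. The embryos (7 control and 8 K36M oocyte-derived were used) came from oocytes of the same genotypes fertilized in vitro with JF-1 sperm, and were collected 31 to 32 h after fertilization. By the paper's account, K36M females and wild-type males should give embryos with and without the K36M allele. The sample titles do not say which embryos carried it.

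In meiotic prophase, which in females takes place in the foetal ovary, the SPO11 complex cuts DNA at hotspots marked by PRDM9, and the DMC1 recombinase pairs the broken ends with the homologous chromosome. The synaptonemal complex then joins the homologues along their length, between axes built from meiotic cohesins and HORMA-domain proteins, while a subset of breaks matures into crossovers. PRDM9 is itself a methyltransferase of H3 lysine 4 and lysine 36, and Gdf9-Cre becomes active after this stage has ended. Promoters of germ-line genes are known for CpG-rich sequence, for E-boxes and for E2F6 sites, and the STRA8 and MEIOSIN pair, which starts meiosis, is known to act at a motif with the letters CCTCAG.

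RefSeq promoter windows (GRCm38.p6, 250 bases before to 50 after a start site) were available for 29 of the 35 genes and not for Tex11, Spo11, Terb2, Tex15, Majin and Meiob. On either strand, the E2F6 core TTCCCGC was present in a window of 12 of the 29 genes (41.4%), against 5.29% of all 27025 genes. The E-box CACGTG was found in 8 (27.6%), against 8.09% of all genes, and CCTCAG in 14 (48.3%), against 29.4%. The highest CpG observed-to-expected ratio among a gene's windows had a median of 0.666 over the 29 genes and of 0.415 over all genes. Among the genes with a ratio of at least 0.6, TTCCCGC was in 12 of 20 members (60.0%) and 11.1% of 10366 genes, and CACGTG in 8 of 20 (40.0%) and 12.7%. A match describes the letters of the window and does not show that a factor bound there.

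Printed below are the windows of 3 genes that rose from FGO to 2C (Prdm9, Stra8 and Sycp3), of 3 that fell (Syce2, Rec114 and Rnf212), and of Tex12, the member with the smallest p between K36M and control FGOs. They are chr17:15564305-15564604 on the minus strand, chr6:34920698-34920997 plus, chr10:88459337-88459636 plus, chr8:84872008-84872307 plus, chr9:58741510-58741809 minus, chr5:108774978-108775277 minus and chr9:50561219-50561518 minus. Each runs 5′ to 3′ on the strand of its gene, and capitals mark every match to TTCCCGC, to the palindrome CACGTG or to CCTCAG on either strand, so that a match on the other strand reads GCGGGAA for the first of these motifs and reads CTGAGG for the last.
Prdm9: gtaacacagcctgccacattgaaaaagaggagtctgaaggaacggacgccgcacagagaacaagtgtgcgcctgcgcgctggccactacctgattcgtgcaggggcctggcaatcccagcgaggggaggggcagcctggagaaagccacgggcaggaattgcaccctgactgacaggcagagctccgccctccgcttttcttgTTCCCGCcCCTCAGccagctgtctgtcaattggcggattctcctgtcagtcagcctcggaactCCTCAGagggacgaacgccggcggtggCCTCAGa
Stra8: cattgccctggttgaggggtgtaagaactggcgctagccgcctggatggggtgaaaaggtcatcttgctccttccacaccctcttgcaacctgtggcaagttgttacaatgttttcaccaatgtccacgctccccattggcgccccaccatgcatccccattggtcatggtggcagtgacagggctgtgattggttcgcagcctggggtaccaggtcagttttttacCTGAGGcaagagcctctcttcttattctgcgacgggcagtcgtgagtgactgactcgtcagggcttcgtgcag
Sycp3: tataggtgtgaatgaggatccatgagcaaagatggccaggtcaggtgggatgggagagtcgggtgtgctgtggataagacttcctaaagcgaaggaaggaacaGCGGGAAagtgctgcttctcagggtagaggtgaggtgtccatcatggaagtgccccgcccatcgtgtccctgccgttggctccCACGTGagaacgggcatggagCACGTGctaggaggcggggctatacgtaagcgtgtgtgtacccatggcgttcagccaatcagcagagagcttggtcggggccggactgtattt
Syce2: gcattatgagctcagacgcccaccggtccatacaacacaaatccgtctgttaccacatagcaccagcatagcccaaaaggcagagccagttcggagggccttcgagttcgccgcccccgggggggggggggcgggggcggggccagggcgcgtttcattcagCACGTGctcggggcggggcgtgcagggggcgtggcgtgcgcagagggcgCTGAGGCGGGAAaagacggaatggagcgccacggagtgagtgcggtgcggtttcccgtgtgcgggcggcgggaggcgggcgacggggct
Rec114: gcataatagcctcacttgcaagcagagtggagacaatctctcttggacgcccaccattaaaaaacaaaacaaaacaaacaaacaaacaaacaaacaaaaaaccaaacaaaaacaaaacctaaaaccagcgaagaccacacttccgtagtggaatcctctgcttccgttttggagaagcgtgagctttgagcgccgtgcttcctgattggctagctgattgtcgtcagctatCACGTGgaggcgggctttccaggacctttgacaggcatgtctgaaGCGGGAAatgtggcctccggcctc
Rnf212: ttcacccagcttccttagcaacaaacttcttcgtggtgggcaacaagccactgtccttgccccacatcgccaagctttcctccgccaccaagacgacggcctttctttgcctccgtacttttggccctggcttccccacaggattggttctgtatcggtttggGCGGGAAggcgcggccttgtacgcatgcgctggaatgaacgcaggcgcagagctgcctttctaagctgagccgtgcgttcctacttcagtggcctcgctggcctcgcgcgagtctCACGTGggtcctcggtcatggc
Tex12: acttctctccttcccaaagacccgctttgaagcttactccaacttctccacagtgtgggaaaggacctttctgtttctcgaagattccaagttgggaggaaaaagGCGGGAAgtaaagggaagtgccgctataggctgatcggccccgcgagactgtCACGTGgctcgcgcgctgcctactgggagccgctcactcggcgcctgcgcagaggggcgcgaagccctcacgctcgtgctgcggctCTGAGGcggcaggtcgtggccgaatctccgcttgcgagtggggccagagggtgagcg
The capitals of the Syce2 window for CCTCAG and for TTCCCGC, both on the other strand, share 1 base. The Stra8 window held a CCTCAG match and neither of the other motifs, whereas the printed windows of Syce2, Rec114, Rnf212, Sycp3 and Tex12 each held both TTCCCGC and CACGTG. Prdm9 and Syce2 each had another window, at a different start site and not printed, that held none of these motifs. Of the 11 members that rose in controls, 10 had a window, of which 6 held TTCCCGC and 3 CACGTG. Of the 4 that fell, 3 held each of these motifs (Terb1 held neither). Of the 15 with a window among the 18 that did not pass, 3 held TTCCCGC and 2 held CACGTG. The third motif, CCTCAG, was present in 7 of the 10 that rose, 1 of the 4 that fell and 6 of the 15 others, and these differences were not tested.

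The values were TPM, each gene's share of a library's transcripts, which the authors had corrected for the length of each gene, with the same total in every library. The study's list of libraries gives every FGO library more reads than any embryo library, but TPM keeps no read counts per gene, so no counting interval is given and the part of depth in values of 0 was not tested. Between 16707 and 18559 genes were above 0 in an FGO library and between 10894 and 17329 in an embryo. The 10 oocyte markers (Gdf9, Zp2, Zp3, Btg4 and others) summed to 16696–19014 TPM in FGOs and to 1151–4487 in embryos, whereas the 8 two-cell markers (Zfp352, Usp17lc and others) summed to 34.5–73.9 and 270–2440. The 8 granulosa markers summed to 42.3–58.6 TPM in FGOs and 17.9–130 in embryos, and the 8 blood and stroma markers to 55.8–69.1 and 18.8–106, with Hbb-bt at 0 in every library used and most of the FGO sum from Pecam1. H3f3b, the modified gene, stood at 265–308 TPM in control and 377–418 in K36M FGOs, a difference of 0.44 on the log2(TPM + 1) scale (SE 0.09, adjusted p = 0.281, limma), and the table does not separate its alleles. Control 2C replicate 4, which the study had left out, lay above the other 7 control embryos for 11 members and below them for 3, and was not used except as an alternative. The labels do not say whether libraries of a group came from separate females, so the tests measure the spread between libraries.

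Transcripts of many of these genes were found in FGOs, long after prophase. In the control FGOs, 27 of 35 members had a mean of at least 1 TPM, 14 of at least 10 and 3 of at least 100, against 52.9%, 33.4% and 9.19% of all 26214 genes. Over both genotypes, 28 members were above 0 in each of the 6 FGO libraries and 15 in each of the 15 embryos. Spo11 was the only member listed at 0 in every FGO library, and it was above 0 in only 2 embryos (K36M replicates 6 and 7, 5.38 and 3.86 TPM). Syce3 and Rec8 were listed at 0 in all control FGOs and reached no more than 1.34 and 0.055 TPM in a K36M FGO library.

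Syce2, a central-element protein of the synaptonemal complex, was the most abundant member of the oocyte, at 748, 789 and 701 TPM in the 3 control FGO libraries. It was 47.2% of the summed TPM of the 35 genes, and its mean stood above that of 99.4% of all genes. Brca2, which loads DMC1 onto broken ends and is also used outside meiosis, followed at 228, 241 and 244 TPM. Next were Tex15 (108, 96.7 and 123 TPM), a germ-cell factor needed for recombinase loading, and Sycp2 (91.1, 75.9 and 97.3 TPM), an axis protein, whose values overlapped. In that order of 35 genes, 6 of 34 neighbouring pairs did not overlap between libraries, Syce2 over Brca2 and Brca2 over Tex15 among them. The central-element genes, whose products act in one structure, differed widely, as Syce2, Tex12, Syce1 and Syce3 stood at mean TPM values of 746, 36.5, 3.72 and 0 in control FGOs.

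**Figure D1:**
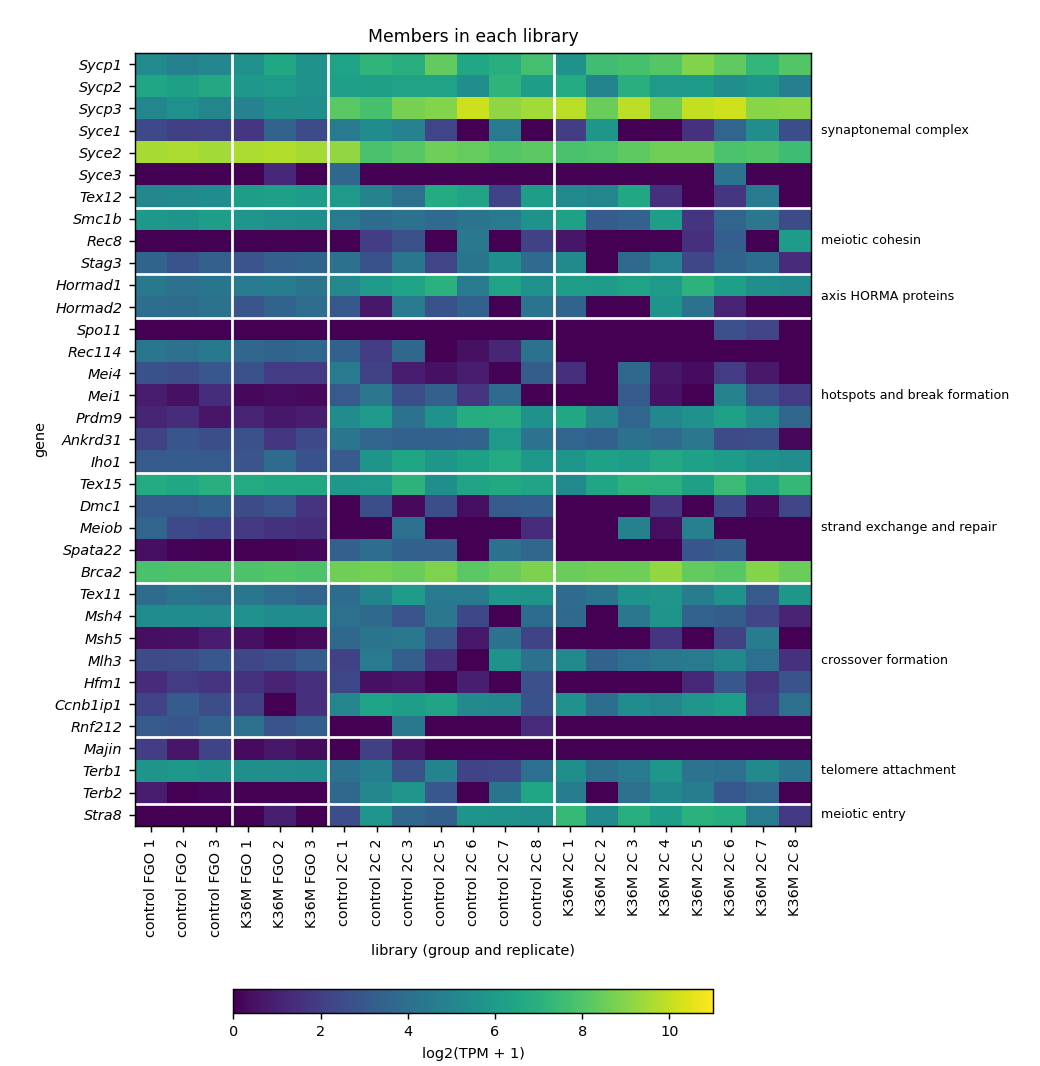
Members in each library. Rows are the 35 genes grouped by role, columns the 21 libraries used, and colour is log2(TPM + 1). Syce2 and Brca2 are high throughout, Sycp3 is higher in the embryo columns than in the FGO columns, and Spo11, Syce3 and Rec8 are near 0 in most libraries.

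From FGO to the late 2C stage, the RNA of these genes was rearranged in control samples. In a limma fit over 21 libraries, 11 of 33 members tested rose (background 13.4% of 17358 genes), 4 fell (background 13.2%) and 18 did not pass an adjusted p of 0.05. The filter of a mean of 1 TPM over libraries that were mostly embryos admitted 7 members with a control FGO mean under 1 TPM, and 4 of the 11 that rose (Terb2, Stra8, Spata22 and Msh5) were among them, so the counts describe the members that passed and are not support for a direction. The median difference of log2(TPM + 1) was 0.63 over the members and 0.00 over all genes. In the order of the roles, the numbers that rose and fell were 2 and 1 of 7 for the synaptonemal complex, 0 and 0 of 3 for the meiotic cohesins, 1 and 0 of 2 for the axis HORMA proteins, 2 and 1 of 6 for hotspots and break formation, 2 and 0 of 5 for strand exchange and repair, 2 and 1 of 7 for crossover formation, 1 and 1 of 2 for telomere attachment, and 1 and 0 of 1 for meiotic entry. FGO libraries were pools and embryo libraries single embryos with a paternal JF-1 genome, so the stage, the library type and the cross cannot be told apart. In pooled or whole-embryo RNA, a change in the share of cells and a change of RNA per cell cannot be told apart either. After median-of-ratios scaling, which moved the median of all genes from 0.00 to -0.17, 8 members rose and 5 fell (1951 and 3106 of all genes, against 2323 and 2292 before). Brca2, Hormad1 and Msh5 were then no longer called.

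Within the synaptonemal complex the direction differed between parts. Sycp3, which forms the axis together with SYCP2, was at 31.8, 45.6 and 32.6 TPM in control FGOs and at 225–1161 (median 502) in the 7 control embryos. The groups did not overlap, the mean was 15.1-fold higher in embryos, and the difference of log2(TPM + 1) was 3.72 (SE 0.42, adjusted p = 3.3e-07, limma). Sycp1, the transverse filament, rose from 38.5, 27.4 and 33.3 TPM to 83.0–331 (median 123), a difference of 2.09 (SE 0.51, adjusted p = 0.00345). Syce2 fell to 229–594 TPM (median 300), all below the control FGOs, a difference of -1.18 (SE 0.25, adjusted p = 0.00109). The other axis gene, Sycp2, did not move with Sycp3: its embryos ranged from 41.6 to 140 TPM, around the FGO values, with a difference of -0.21 (SE 0.44, adjusted p = 0.764). By group mean Sycp3 was the highest member of the embryos, at 25.4% of the summed TPM of the 35 genes in controls against 2.32% in control FGOs. It was the highest member in 5 of 7 control and 6 of 8 K36M embryos, with Syce2 or Brca2 above it in the others, and none of the 34 neighbouring pairs in the order of means was free of overlap in either 2C group.

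The exons of Sycp3 (chr10:88459587-88473236) share 536 bases, 47.8% of its exon length, with Chpt1 on the opposite strand, and the strand setting of the authors' counting was not given in the sources used here. Chpt1 was at 3.35–5.13 TPM in control FGOs and 0.25–34.3 in control embryos, so its highest embryo lay below the lowest Sycp3 value of 225. Of the other members that rose, Msh5 shares 398 exon bases (9.88% of its exons) with Gm52318, Brca2 386 (3.36%) with Gm42529 and Hormad1 36 (1.87%) with Gm40097, partners whose values were not analysed here. Spata22 shares 251 (8.12%) with Aspa, which was listed at 0 in every embryo used. Whether shared reads moved between overlapping genes was not tested.

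Prdm9 and Stra8, which act at hotspots and at meiotic entry, were near or at 0 in control FGOs and above 0 in every embryo. Prdm9 was at 1.23, 1.66 and 0.575 TPM in control FGOs and at 16.4–113 (median 48.0) in control embryos, 53.8-fold higher in the mean (difference 4.67, SE 0.67, adjusted p = 1.28e-05, limma). Stra8, the retinoic acid-induced regulator of meiotic entry, was listed at 0 in all 3 control FGO libraries and stood at 5.11–52.2 TPM (median 43.4) in the control embryos, for which the adjusted p was 8.9e-04 and no fold is given. Iho1, an axis-bound partner of the break machinery, rose from 7.75, 8.23 and 7.60 TPM to 50.7–105 in 6 control embryos, but replicate 1 stayed at 7.98 (difference 2.57, SE 0.57, adjusted p = 0.0016). That embryo also had the lowest Stra8 and Sycp1 and the highest Syce2 of the control embryos, with 3847 TPM of oocyte markers and 1573 TPM of two-cell markers, each the second highest sum of the 7. Without it the members that rose and fell numbered 10 and 4, and all genes 2264 and 2428 of 17161.

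Not every break gene moved this way. Rec114, which forms the pre-break complex with MEI4, fell from 19.1, 15.7 and 20.99 TPM to 0–16.1 (median 2.82), with one embryo inside the FGO range (difference -2.17, SE 0.77, adjusted p = 0.0382). Mei4 itself was at 5.12–6.90 TPM in control FGOs and 0.090–21.2 in embryos, with an adjusted p of 0.414. Spo11, whose product makes the cut, was listed at 0 in all 7 control embryos used, whereas Prdm9 was above 0 in each of them.

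Of the genes that act on broken ends and crossovers, Ccnb1ip1 and Rnf212, a pair of opposing regulators of crossover number, went opposite ways. Ccnb1ip1 was at 3.62, 8.14 and 4.99 TPM in control FGOs and 5.79–84.0 (median 36.1) in embryos (difference 2.64, SE 0.84, adjusted p = 0.0217, limma). Rnf212 was at 7.76, 6.60 and 9.85 TPM in control FGOs and listed at 0 in 5 of 7 control embryos, with 20.3 and 1.59 TPM in the others (difference -2.34, SE 0.75, adjusted p = 0.0229). Spata22, a single-strand binding partner of MEIOB, was at most 0.370 TPM in control FGOs and at 9.43–16.4 in 6 of 7 control embryos, with replicate 6 listed at 0 (difference 2.94, SE 0.87, adjusted p = 0.0144). Meiob was at 3.62–10.9 TPM in control FGOs and listed at 0 in 5 of 7 control embryos, with an adjusted p of 0.197. Msh5 was higher in control embryos (difference 2.58, SE 0.93, adjusted p = 0.0425, limma), but passed in only 16 of 31 alternatives. With a control FGO mean of 0.551 TPM, it passed the filter through the embryos. Msh4, its partner, stood at 38.1–39.8 TPM in control FGOs and 0–19.5 in control embryos. It did not pass the test (difference -2.26, SE 0.98, adjusted p = 0.0904), and passed in 3 of 31 alternatives. Brca2 rose by a smaller step, to 293–461 TPM (median 386) in control embryos, 1.65-fold in the mean (difference 0.70, SE 0.21, adjusted p = 0.0164). It passed in 26 of 31 alternatives, but not after median-of-ratios scaling, and its lowest difference over the alternatives was 0.38.

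Partners at the telomere also parted. Terb1, which tethers telomeres to the nuclear envelope together with TERB2 and MAJIN, fell from 51.4, 57.5 and 47.7 TPM to 3.74–29.8 (median 15.3), with no overlap (difference -2.13, SE 0.62, adjusted p = 0.0125, limma). Terb2 was at 0.803, 0 and 0.139 TPM in control FGOs and at 6.95–87.1 in 6 of 7 control embryos (difference 3.69, SE 1.19, adjusted p = 0.0236). Majin was at 0.598–3.71 TPM in control FGOs and above 0 in only 2 control embryos, and did not pass the filter of a mean of 1 TPM over the 21 libraries. Without the filter it was lower in embryos (difference -1.24, adjusted p = 0.0229, limma). In the other alternative that admitted it, the adjusted p was 0.157. Without the filter, 10 of 35 members rose and 5 fell, as did 2180 and 2589 of 23950 genes. Among the HORMA proteins, Hormad1 rose from 20.9, 16.8 and 18.4 TPM to 23.0–131 (median 58.3), a difference of 1.55 (SE 0.48, adjusted p = 0.0192), and the difference for Hormad2 was -1.33 (SE 1.17, adjusted p = 0.432). Of the meiotic cohesin genes, Smc1b was at 51.2–69.4 TPM in control FGOs and 13.5–48.2 in the 7 control embryos, with no overlap and an adjusted p of 0.154 (difference -1.49, SE 0.76), and it passed with array weights and in a fit of control libraries alone. Stag3 and Rec8 gave adjusted p-values of 0.651 and 0.299.

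**Figure D2:**
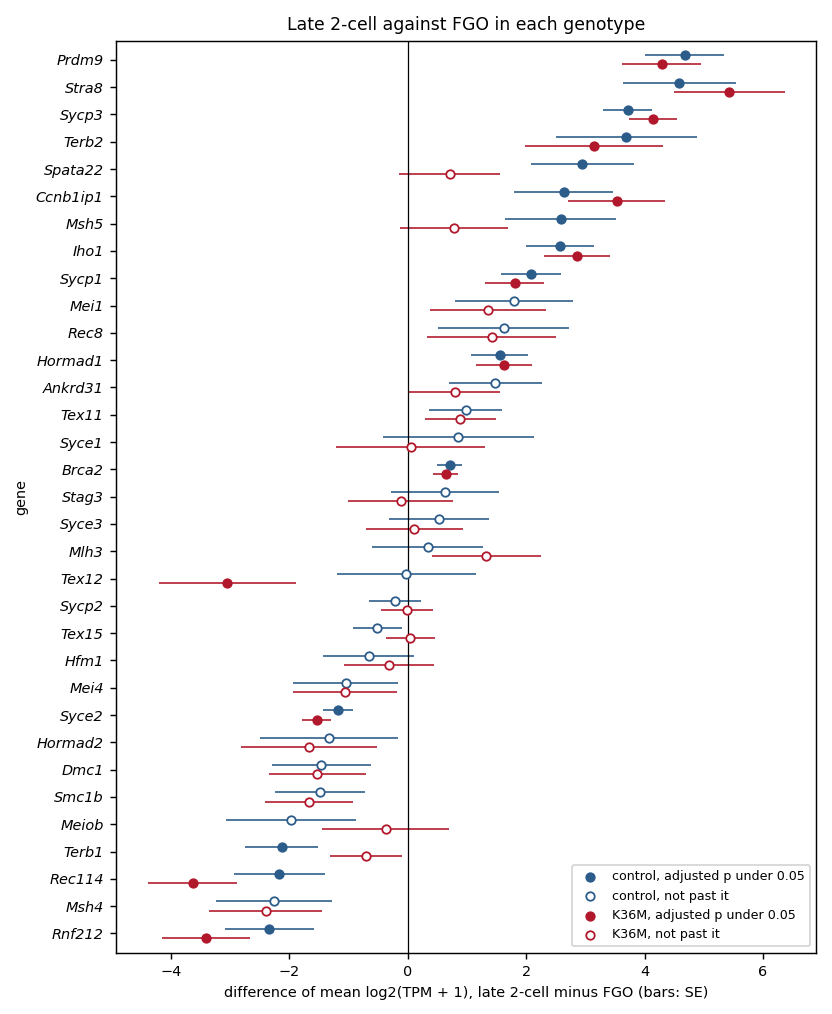
Late 2C minus FGO in each genotype. The x axis is the difference of mean log2(TPM + 1) with its SE for the 33 members tested, blue for control and red for K36M, and filled points passed an adjusted p of 0.05. Prdm9, Stra8 and Sycp3 lie far to the right in both genotypes and Syce2, Rec114 and Rnf212 to the left. A group was listed at 0 throughout for Stra8, Rec8 and Syce3 in control FGOs, Terb2 in K36M FGOs, and Rec114 and Rnf212 in K36M embryos, so these points are not folds.

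The same comparison in K36M samples, from the same fit, gave 9 members that rose (background 10.8% of 17358 genes) and 4 that fell (background 18.6%), of 33 tested. Here too 3 of those that rose (Prdm9, Stra8 and Terb2) had a K36M FGO mean under 1 TPM and passed the filter through the embryos, so the counts are a description. The 9 that rose (Brca2, Ccnb1ip1, Hormad1, Iho1, Prdm9, Stra8, Sycp1, Sycp3 and Terb2) had all risen in controls, though Brca2 passed in 23 and Terb2 in 14 of 31 alternatives, and 3 of the 4 that fell (Rec114, Rnf212 and Syce2) had fallen there. Prdm9 went from 1.06, 0.618 and 0.805 TPM in K36M FGOs to 11.2–91.6 (median 36.3) in the 8 K36M embryos, and Sycp3 from 28.3, 43.1 and 43.7 to 355–1174 (median 749). Syce2 fell from 806, 855 and 731 TPM to 193–388 (median 253), a difference of -1.54 (SE 0.25, adjusted p = 4.3e-05, limma). Tex12, a central-element partner of SYCE2, passed in K36M samples only (difference -3.05, SE 1.16, adjusted p = 0.0495, and -0.02, SE 1.18, in controls) and in 9 of 31 alternatives, and Msh5, Spata22 and Terb1 in controls only. The genotype-by-stage term called none of 33 members and none of 17358 genes (background 0%, unadjusted p under 0.05 for 0 members and 1.15% of genes), and no member's stage change was shown to differ between genotypes. The numbers of calls rested on few FGO libraries, for members and for all genes. Without control FGO replicate 1, 2 or 3, 6, 6 and 5 members rose and 1, 1 and 2 fell in controls. Of all genes, 1579, 1559 and 1592 then rose and 1265, 1313 and 1285 fell, against 2323 and 2292 before. Without K36M FGO replicate 3, 5 members rose and 3 fell in K36M samples. Of all genes, 1473 then rose and 2005 fell, against 1866 and 3228 before. Sycp1, Sycp3, Syce2, Stra8, Prdm9 and Iho1 stayed past the threshold in controls in each of 31 alternatives.

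**Figure D3:**
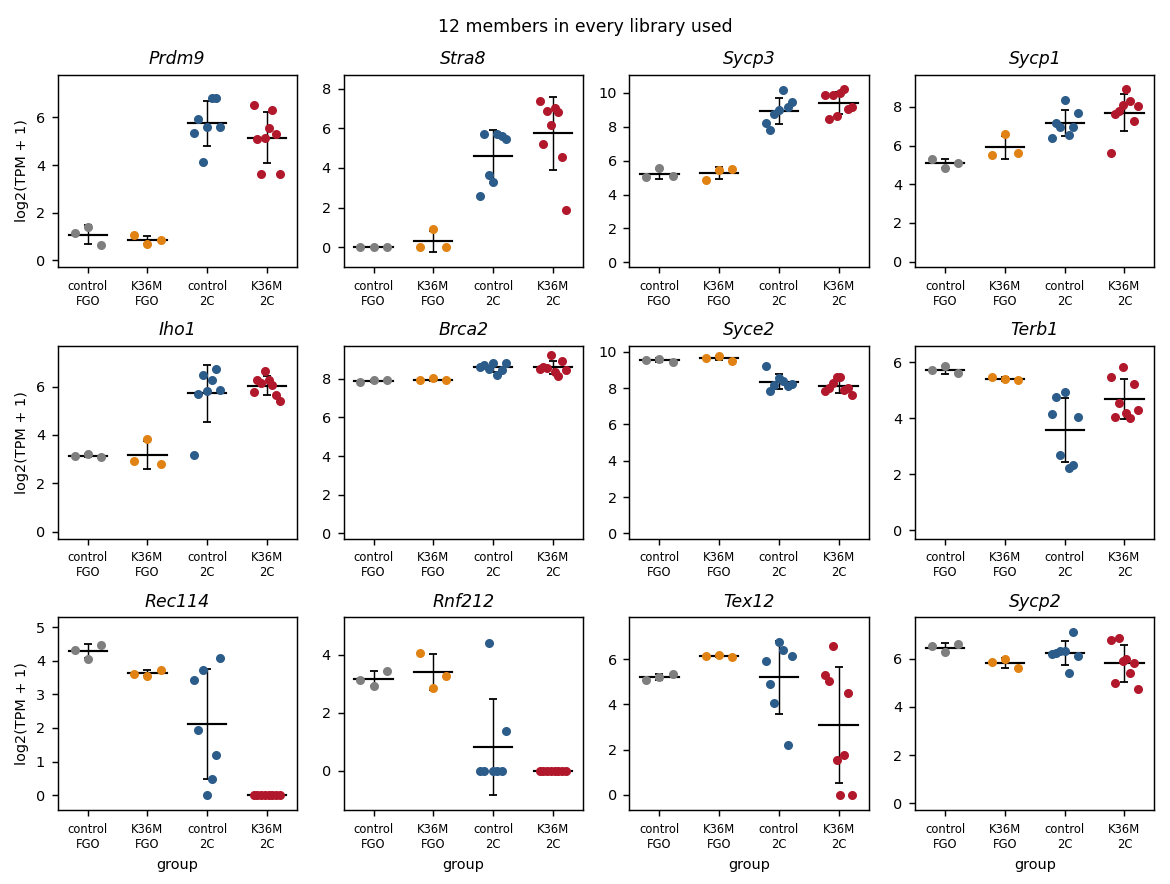
Values of 12 members in every library used. The y axis is log2(TPM + 1), points are libraries, and black lines and bars are the mean and SD of each group. Prdm9, Stra8 and Sycp3 separate the embryos from the FGOs, Tex12 separates K36M from control FGOs, and Rec114 is listed at 0 in all 8 K36M embryos.

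In FGOs, no member passed the adjusted threshold between K36M and control (26 tested; background 0.00726%, 1 gene of 13775). The 2 smallest p-values belonged to Tex12 and Sycp2, synaptonemal complex genes with opposite signs. Tex12 was at 33.3, 36.1 and 40.1 TPM in control and 69.0, 72.0 and 67.3 in K36M FGOs, 1.90-fold higher in the mean (difference 0.91, SE 0.12, adjusted p = 0.0944, limma). Sycp1 was at 45.2, 95.8 and 47.5 TPM in K36M FGOs, above the 3 control libraries, replicate 2 of K36M standing apart (difference 0.83, SE 0.27, adjusted p = 0.396). Sycp2 was lower in each K36M library, at 57.4, 63.1 and 48.3 TPM (difference -0.64, SE 0.14, adjusted p = 0.306). Tex12 passed only without K36M FGO replicate 1 (adjusted p = 0.0240), a setting in which 300 genes of all those tested were called; its adjusted p ranged from 0.0240 to 0.365 over 14 alternatives. Its exons share 93 bases with Il18 on the opposite strand, which was at 0.075–0.583 TPM in control and 0.449–4.64 in K36M FGOs.

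Counted by separation alone, 8 of the 26 members did not overlap between control and K36M FGOs (background 15.6%). Of these, Tex12 and Sycp1 were higher in K36M (background 7.46%), and 6 were lower (background 8.17%): Ccnb1ip1, Dmc1, Meiob, Rec114, Sycp2 and Terb1. An unadjusted p under 0.05 was found for 9 (background 10.5%), these 8 and Majin. Rec114 was at 11.2, 10.7 and 12.3 TPM in K36M FGOs, below its 3 control libraries (difference -0.65, SE 0.19, adjusted p = 0.381). Dmc1, the meiotic recombinase, was at 7.68–9.83 TPM in control and 2.19–6.47 in K36M FGOs (adjusted p = 0.438). Of the most abundant genes, Syce2 gave a difference of 0.10 (SE 0.08) and Brca2 of 0.07 (SE 0.08). The median difference was -0.15 over the 26 members and 0.01 over all genes tested.

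In 2C embryos, no member passed between K36M and control oocyte-derived embryos (33 tested; background 0%, 0 of 17362 genes). Within each group the embryos varied widely: members with a mean of at least 1 TPM had a median SD of log2(TPM + 1) of 1.33 in control and 1.31 in K36M embryos, against 0.19 and 0.34 in the FGO groups. No member separated the groups (background 0.115%). An unadjusted p under 0.05 was found for 4 members, Rec114, Spata22, Msh5 and Tex12, each lower in K36M (background 6.50% lower, 7.71% in either direction).

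Rec114 gave the smallest p of these. It was above 0 in 6 of 7 control embryos, at 0.390–16.1 TPM, and listed at 0 in control replicate 5 and in each of the 8 K36M embryos (adjusted p = 0.515, from 0.368 to 0.796 over 23 alternatives). Spata22 was above 0 in 6 of 7 control embryos and in 2 of 8 K36M embryos (difference -2.35, SE 0.81, adjusted p = 0.556, limma). Msh5 was above 0 in all 7 control and 3 of 8 K36M embryos (difference -2.13, SE 0.85, adjusted p = 0.578). Tex12, higher in K36M FGOs, ranged from 3.65 to 109 TPM in control and from 0 to 94.2 in K36M embryos (difference -2.11, SE 0.97, adjusted p = 0.622), and the genotype-by-stage term for it had an adjusted p above 0.99. Sycp3 and Stra8 stood higher in the mean in K36M embryos, at 742 against 553 TPM and 81.8 against 31.4, with adjusted p-values of 0.708 and 0.698.

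**Figure D4:**
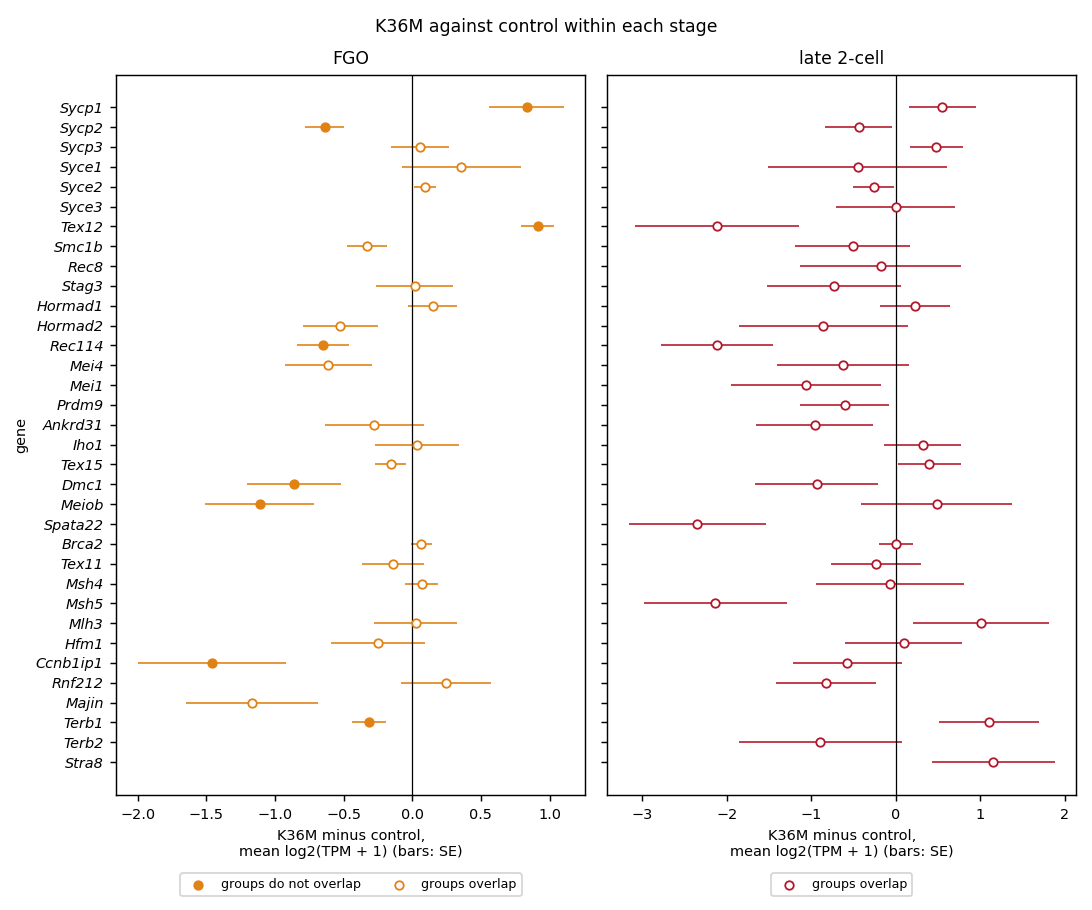
K36M minus control in FGOs and in 2C embryos. The x axes are differences of mean log2(TPM + 1) with SE, on separate scales, and filled points mark members whose groups do not overlap. In FGOs, 8 members do not overlap, 2 higher and 6 lower in K36M, and in embryos none.

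Detection varied along with these values. K36M embryos had 18–31 of the 35 members above 0 (median 25) and 10894–14879 of all genes, against 26–33 members (median 29) and 12115–17329 genes in control embryos. The FGO libraries had 30 or 31 members above 0. Over all 17362 genes the median difference between K36M and control embryos was -0.26, and it was -0.44 over the members. After quantile normalization these medians were -0.01 and -0.07, so changes are read relative to that shift. The 4 members with an unadjusted p under 0.05 had control embryo means of 6.04 TPM (Rec114) to 52.7 TPM (Tex12), and the part of detection in their values was not tested.

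**Figure D5:**
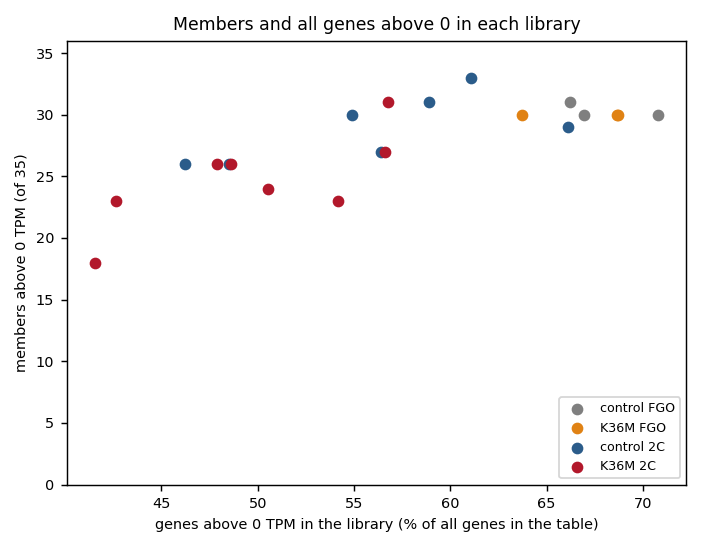
Members and all genes above 0 TPM in each of the 21 libraries used. The x axis is the percentage of the 26214 genes above 0, the y axis the number of the 35 members. FGO libraries lie at 30 or 31 members, and the K36M embryos reach down to 18 members at 41.6% of genes.

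Other genes of the same pathways were set beside the members. Of 28 tested genes of a list of other meiotic prophase genes, 5 rose and 7 fell from FGO to 2C in controls, where 13.4% of all genes rose and 13.2% fell. Meioc, which sustains the meiotic programme, rose from a mean of 3.72 to 206 TPM (difference 5.35, SE 0.53, adjusted p = 4.2e-08, limma), and Bhmg1, which RefSeq also lists as Meiosin, the partner of STRA8, rose from 3.83 to 58.8 (difference 3.09, SE 0.92, adjusted p = 0.0153). Dazl, an RNA-binding germ-cell factor, fell from 389 to 39.5 TPM (difference -3.97, SE 1.13, adjusted p = 0.0110). Of 22 homologous recombination genes used in all cells, 2 rose and 5 fell, Brca1 from 184 to 35.9 TPM (difference -2.35, SE 0.43, adjusted p = 2.5e-04), opposite to Brca2. Of 13 mitotic cohesin genes, 4 rose and 2 fell, and Rad21, the kleisin subunit used in mitosis, rose from 309 to 1015 TPM (difference 1.65, SE 0.24, adjusted p = 1.8e-05), while the meiotic kleisin Rec8 did not pass. The median differences of these lists were -0.27, -1.90 and 0.44, against 0.63 for the members and 0.00 for all genes. In FGOs and in 2C embryos, no gene of these lists passed between K36M and control (smallest adjusted p 0.306 in FGOs and 0.572 in embryos).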

How the data were processed

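RNA-seq libraries had been made from pooled FGOs and from single 2C embryos, the latter with more amplification. The authors trimmed reads with Trim Galore, aligned them to mm10 with Hisat2, removed rRNA reads with BEDTools, counted with featureCounts and deposited TPM values for 26214 genes in 22 libraries. The gene annotation and strand setting of the counting were not given in the sources used here. TPM keeps no read counts per gene, so no count test, interval or detection limit was computed, and the precision rests on the spread between libraries.

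Values were transformed as log2(TPM + 1), a scale that understates changes of low genes, and genes with a mean of at least 1 TPM over the libraries of a fit were tested with limma 3.58.1 (R 4.3.3, empirical Bayes with a mean-variance trend). All tests were two-sided, and p-values were adjusted by Benjamini-Hochberg over all genes tested, with a threshold of 0.05. K36M and control were compared within FGOs and within 2C embryos. The stage comparisons and the genotype-by-stage term came from 1 fit of the 4 groups. The procedure was tested on simulated data. Alternatives were a pseudocount of 0.1, no filter or a mean of at least 5 TPM, quantile and median-of-ratios scaling, no trend, array weights, a replicate block, inclusion of control 2C replicate 4, fits of 1 genotype, and omission of each library in turn. The omission of each embryo was chosen after seeing the data.

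Members described in full were the 8 with the highest mean in any group, those past the threshold, up to 6 in each direction with the largest control stage difference, and the member with the smallest p in each genotype test. Members and lists were chosen with earlier results of these data known. Values named outside this rule were chosen after they were seen. Promoter windows came from RefSeq (GRCm38.p6), matched by symbol. Summaries and figures were made with Python 3.11.15.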

Additional observations from a re-analysis of the deposited data

Results flagged for a closer look

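Single embryos stood apart from their group for several members, by a gap to the nearest other embryo that was large against the range of the group (Dixon's criterion at 95%). This held in 13 of the 66 combinations of a member and a 2C group that could be checked, on the log2(TPM + 1) scale. Chance gives about 1 in 20, or 3.3, for normally distributed values. Over all genes of the table, 29.6% of 41348 such combinations met the criterion, against 19.7% for the members, and nothing particular to the members is read from their number. Among control embryos, replicate 1 had 11.8 TPM of Syce3 (0 in the other 6) and 7.98 of Iho1 (50.7–105 in the others). Replicate 2 had 3.19 TPM of Majin (0–0.604 in the others). Replicate 3 had 15.3 TPM of Meiob (0–1.60) and 20.3 of Rnf212 (0–1.59). Replicate 6 was listed at 0 for Spata22 (9.43–16.4), and replicate 7 had 61.1 TPM of Ankrd31 (9.56–18.7). Replicate 8 had 48.2 TPM of Smc1b (13.5–22.7) and 5.79 of Ccnb1ip1 (30.9–84.0). Among K36M embryos, replicate 6 had 17.1 TPM of Syce3 (0 in the other 7), replicate 7 had 24.5 of Msh5 (0–3.47), and replicate 8 had 1.94 of Mlh3 (10.4–35.9) and 0.166 of Ankrd31 (4.70–19.7).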

How the results depend on the processing

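No called member reversed its direction in the alternatives run. With array weights, 15 members rose and 8 fell from FGO to 2C in controls (against 11 and 4) and 10 rose and 7 fell in K36M samples (against 9 and 4), and 9730 and 8527 of all genes were called, against 4615 and 5094. With single libraries left out, the members that rose ranged from 5 to 11 and those that fell from 1 to 4 in controls, and from 5 to 9 and from 3 to 5 in K36M samples. All genes called then ranged from 2844 to 4930 in controls and from 3421 to 5365 in K36M samples. The low counts came without a control FGO library (5 or 6 rose, 1 or 2 fell, 2844 to 2877 of all genes called) and without K36M FGO replicate 3 (5 rose, 3478 of all genes called). Members called between K36M and control FGOs ranged from 0 to 1 (Tex12, without K36M FGO replicate 1), and none was called in 2C embryos or in the genotype-by-stage term, where 5 genes without the trend and 13 genes without a filter were the highest counts.

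The sample titles do not say whether equal replicate numbers mark paired samples. In deviations from group means, same-numbered libraries correlated at 0.01 to 0.10 in FGOs and -0.10 to 0.10 in 2C embryos. A control library's best match had its own number for FGO replicates 1 and 3 and for 2C replicate 1. With so few libraries, these values cannot settle whether samples were paired. With the replicate block, 9 members rose and 2 fell in controls (2156 and 1731 of all genes) and 7 and 3 in K36M samples (1746 and 2453). Brca2 and Rec114 passed in 26 and 21 of 31 alternatives in controls, Msh5 in 16, and Brca2, Terb2 and Tex12 in 23, 14 and 9 of 31 in K36M samples; the cause was not tested. TPM keeps no read counts per gene, so no detection limit was computed for a value of 0, embryo libraries had fewer reads than FGO libraries, and the large spread between single embryos limits every comparison with them.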
